A study of Mus musculus with 39 samples.

Results

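Voltage-gated calcium channels admit calcium into neurons when the membrane depolarises, and each channel has 1 pore-forming alpha-1 subunit that sets its voltage range and drug sensitivity. The 8 genes for the pore subunits of the brain (Cacna1a, Cacna1b, Cacna1c, Cacna1d, Cacna1e, Cacna1g, Cacna1h and Cacna1i) were taken by symbol from the count tables. All 8 were found among the 51826 gene rows, and all 8 passed the filter on low counts in every comparison. Their levels are given here as CPM, each library's count scaled to the sum of its gene rows, in micropunches of the nucleus accumbens (NAc) and the basolateral amygdala (BLA).

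Pore subunits fall into classes by the current they carry. Cacna1a (P/Q-type), Cacna1b (N-type) and Cacna1e (R-type) need strong depolarisation and serve transmitter release at presynaptic terminals, and R-type channels are also found in dendrites. Cacna1c and Cacna1d carry the L-type current, which couples activity to gene transcription in neurons, and Cacna1d opens at more negative voltages than Cacna1c. Cacna1g, Cacna1h and Cacna1i carry the T-type current, which opens near the resting potential and supports burst firing. Auxiliary beta and alpha2delta subunits bring L-, P/Q-, N- and R-type pores to the membrane. Small GTPases of the RGK family (Rem, Gem, Rad) inhibit these pores.

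The series compared mice heterozygous for a gene-trap allele of Lmo4 (Lmo4gt/+) with wild-type mice, to look for genes controlled by LMO4, a LIM-only transcription cofactor. The 39 polyA RNA libraries were 9 of Lmo4gt/+ NAc, 10 of wild-type NAc, 9 of Lmo4gt/+ BLA and 11 of wild-type BLA. They came from 20 C57BL/6J mice of 8 to 12 weeks, 9 Lmo4gt/+ and 11 wild type, and 19 mice gave both regions. The labels do not place the trap in the gene, and Lmo4gt/+ mice keep 1 untrapped copy. NAc library 122 is mutant by its title and wild type by its genotype field, and it was kept with the Lmo4gt/+ libraries. Its Lmo4 level, 71.95 CPM, was the highest of Lmo4gt/+ NAc (median 51.2 CPM) and just above the lowest wild-type NAc library (71.63 CPM). BLA library 122, of the same mouse by number, had the lowest Lmo4 level of Lmo4gt/+ BLA, 65.33 CPM. The lowest wild-type BLA library had 138.5 CPM. A punch holds many cell types, and in bulk RNA fewer cells of a type and less RNA per cell cannot be told apart.

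Gene counts ran from 21255934 to 51021670 per library. Lmo4 was lower in the Lmo4gt/+ libraries, at 55.1 ± 9.58 CPM against 90 ± 11.6 CPM in wild-type NAc and at 88.5 ± 12.7 CPM against 160 ± 9.67 CPM in wild-type BLA (SD, n = 9, 10, 9 and 11). Medium spiny neuron markers (7 of the 8 listed symbols matched) summed to 2174 to 4306 CPM in NAc libraries and to 121 to 788 CPM in BLA libraries. The 5 glutamatergic markers summed to 4.28 to 1158 CPM in NAc and to 1683 to 2181 CPM in BLA, and none of either list was at 0 in all libraries of a group. NAc libraries 122 and 134 stood apart, with 721 and 1158 CPM of the glutamatergic markers, and BLA libraries 129, 149, 156 and 159 held more medium spiny neuron RNA than the others. NAc library 149 had the lowest interneuron marker sum, 11.9 CPM, the lowest gene counts (21255934), the fewest genes with reads (20238) and the highest share of reads with no gene (38.1%) of the 39 libraries. BLA library 127 held 611 CPM of choroid plexus and ependymal markers. Wild-type BLA library 151 held 171.6 CPM of them (group median 12.38 CPM), and it stayed in every comparison of genotypes in BLA. Fits were repeated without the NAc libraries 122, 134 and 149 and the BLA libraries 129, 149, 156 and 159, and separately without mouse 127.

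Promoters of 5 of the 8 genes (8 entries) were listed by RefSeq on GRCm38.p6; Cacna1a, Cacna1g and Cacna1h had no entry. Those of Cacna1b and Cacna1i are shown because these genes, of those with an entry, differed between the regions in both genotypes, in opposite directions. Each run is the 250 bases before the annotated start, read 5′ to 3′ on the gene's own strand. Capitals mark the GC box, GGGCGG or CCGCCC on the reverse strand, a motif bound by Sp-family factors.
Cacna1b, chr2:24763153-24763402, minus strand: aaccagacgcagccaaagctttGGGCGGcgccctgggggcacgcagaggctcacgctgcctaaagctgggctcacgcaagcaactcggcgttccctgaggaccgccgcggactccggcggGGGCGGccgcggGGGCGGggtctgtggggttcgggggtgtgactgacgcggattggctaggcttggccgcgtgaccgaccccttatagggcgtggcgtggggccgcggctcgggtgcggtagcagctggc
Cacna1i, chr15:80286988-80287237, plus strand: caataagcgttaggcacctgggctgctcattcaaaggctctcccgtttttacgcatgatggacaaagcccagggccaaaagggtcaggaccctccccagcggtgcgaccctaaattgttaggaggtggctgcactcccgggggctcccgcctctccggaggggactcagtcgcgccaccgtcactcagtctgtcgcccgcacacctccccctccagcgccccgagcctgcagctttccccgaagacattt
The Cacna1b window held 3 GC boxes and the Cacna1i window 0, where 32.7% of 32851 listed promoters of this length held at least 1. GC content was 72% in the Cacna1b window, with 29 CG dinucleotides, and 62.4% in the Cacna1i window, with 16. Each window held 1 E-box (CANNTG), a motif of 66.2% of the listed promoters. A match is a description of the letters only.

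Per kilobase of annotated exon, Cacna1e was the highest of the 8 in every library, at 2.4 to 4.22 times the next member (median 3.24, n = 39). Its level averaged 94.8 ± 22.8 CPM per kb in Lmo4gt/+ NAc and 83.6 ± 9.67 CPM per kb in wild-type NAc (SD, n = 9 and 10). In the BLA it averaged 83 ± 12.6 CPM per kb in Lmo4gt/+ mice and 81.3 ± 14.6 CPM per kb in wild-type mice (SD, n = 9 and 11). This put the R-type subunit above 97.6% of 15809 named genes in wild-type NAc and above 97.2% in wild-type BLA. Exon lengths come from GENCODE vM1 on NCBIM37 (12.7 kb for Cacna1e), and no source used here gives the gene limits of the counting, so a per-length order between genes is approximate.

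In wild-type NAc the order after Cacna1e was Cacna1b (21.8 ± 1.61 CPM per kb), Cacna1c (21.3 ± 3.37), Cacna1i (18.8 ± 2.52), Cacna1a (16 ± 1.87), Cacna1h (15.7 ± 2.28), Cacna1d (7.7 ± 0.66) and Cacna1g (4.5 ± 1.49). The ranges of neighbours in that order overlapped except between Cacna1e and Cacna1b and between Cacna1h and Cacna1d. Cacna1g was the lowest member there, below Cacna1d in all 10 libraries although their ranges met. In wild-type BLA the order was Cacna1e, Cacna1b (27.1 ± 2.84), Cacna1c (20.7 ± 2.59), Cacna1g (20.2 ± 2.81), Cacna1a (17.1 ± 1.83), Cacna1i (14.7 ± 2.01), Cacna1h (9.97 ± 1.13) and Cacna1d (7.52 ± 0.61). There the ranges separated only at Cacna1e from Cacna1b and at Cacna1i from Cacna1h. Cacna1g thus ranked 8 of 8 in wild-type NAc and 4 of 8 in wild-type BLA.

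**Figure D1:**
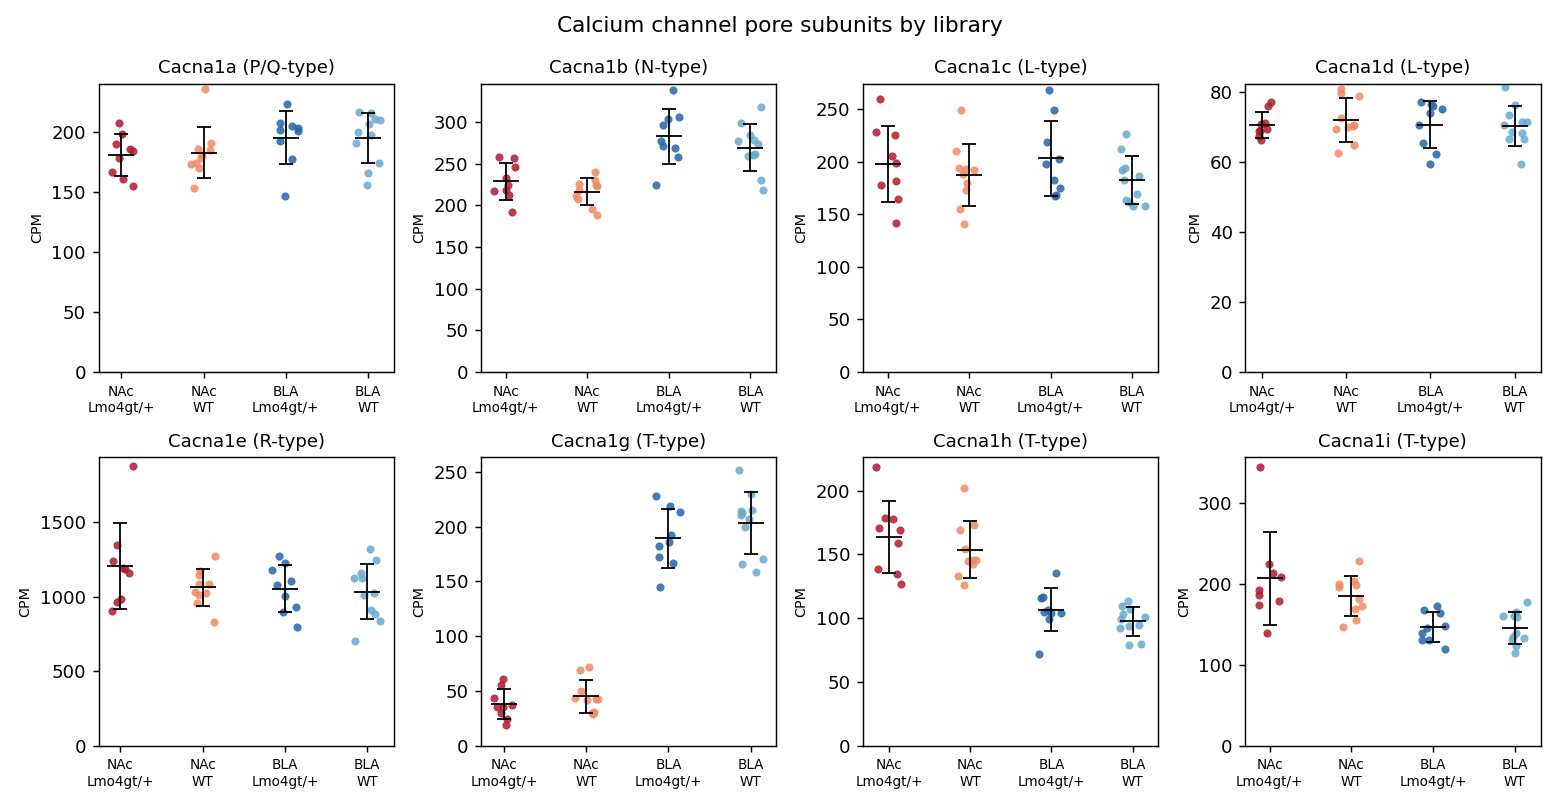
CPM of the 8 pore subunit genes in each library (points), with mean and SD (bars), in NAc and BLA of Lmo4gt/+ and wild-type (WT) mice. Cacna1g lies between 18.6 and 71.8 CPM in NAc libraries and between 145 and 251 CPM in BLA libraries, while most other members overlap between the regions.

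Cacna1g had the largest regional difference of the 8 genes. It (ENSMUSG00000020866.17, chr11:94269705-94335414, minus strand, NCBIM37) measured 18.6 to 61.4 CPM in Lmo4gt/+ NAc (median 35.6, n = 9) and 145 to 228 CPM in Lmo4gt/+ BLA (median 186, n = 9). Wild-type mice had 29.4 to 71.8 CPM in NAc (median 42.5, n = 10) and 158 to 251 CPM in BLA (median 210, n = 11). Every NAc library lay below every BLA library, in both genotypes. With the mouse as a block, edgeR gave a log2 fold change of -2.46 ± 0.17 (SE; adjusted p = 1.29e-07) in Lmo4gt/+ mice, 5.5-fold lower in NAc (95% interval 4.25 to 7.11). In wild-type mice it gave -2.34 ± 0.15 (adjusted p = 2.23e-07), 5.06-fold lower in NAc (3.99 to 6.4). Cacna1g was lower in NAc in 9 of 9 Lmo4gt/+ mice and 10 of 10 wild-type mice.

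The mouse with the smallest Cacna1g difference was 122 among Lmo4gt/+ mice, 3.02-fold lower in NAc, and 134 among wild-type mice, 2.21-fold lower in NAc. Those are the NAc libraries with the highest glutamatergic marker sums, and their part in the Cacna1g level was not tested. NAc library 139 held almost as much Cacna1g as library 134 (69.5 against 71.8 CPM) with a glutamatergic marker sum far below that of library 134. In library 139 Slc17a7, a vesicular glutamate transporter, was at 5.69 CPM, against 914 CPM in library 134. Its relative Slc17a6 was at 19.4 CPM in library 139, the highest of wild-type NAc (median 4.04 CPM), against 2.09 CPM in library 134. In Lmo4gt/+ NAc the highest Slc17a6 level, 10.45 CPM, was in library 127, which held 55.83 CPM of Cacna1g. Libraries 127 and 139 were picked after their values were seen, and the part of these markers in Cacna1g was not tested. Without NAc libraries 122, 134 and 149 and BLA libraries 129, 149, 156 and 159 (and their mice) the log2 fold change was -2.34 ± 0.14 in Lmo4gt/+ mice and -2.46 ± 0.11 in wild-type mice.

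**Figure D2:**
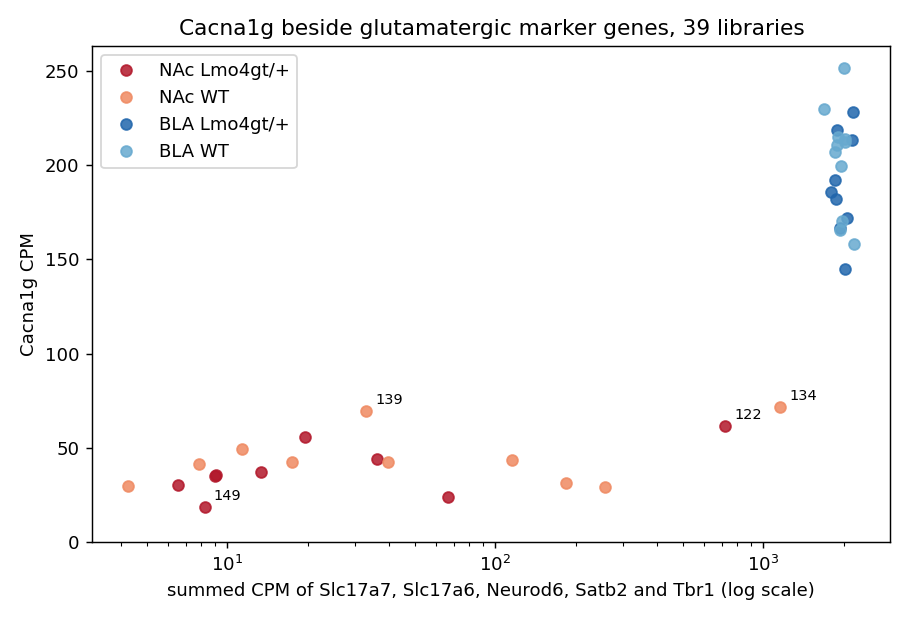
Cacna1g CPM (y axis) against the summed CPM of 5 glutamatergic marker genes (x axis, log scale) in 39 libraries, coloured by region and genotype; numbers mark 4 NAc libraries. NAc libraries 122 and 134 reach 721 and 1158 CPM of the markers, with 61.4 and 71.8 CPM of Cacna1g, below the lowest BLA library at 145 CPM.

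Cacna1h moved the other way (ENSMUSG00000024112.16, chr17:25511230-25570728, minus strand, NCBIM37). In Lmo4gt/+ mice it measured 127 to 219 CPM in NAc (median 169) and 71.8 to 135 CPM in BLA (median 105), and these ranges met. Wild-type mice had 126 to 202 CPM in NAc (median 146) and 78.9 to 113 CPM in BLA (median 99.3), where the ranges did not overlap. The edgeR log2 fold change was 0.55 ± 0.13 (adjusted p = 0.00254) in Lmo4gt/+ mice, higher in NAc in 8 of 9 mice, and 0.56 ± 0.08 (adjusted p = 1.42e-05) in wild-type mice, higher in 10 of 10. The exception, mouse 122, had 127 CPM in NAc and 135 CPM in BLA.

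Cacna1i (ENSMUSG00000022416.15, chr15:80117668-80228709, plus strand, NCBIM37) was also higher in NAc. Lmo4gt/+ mice had 139 to 345 CPM in NAc (median 192) and 119 to 173 CPM in BLA (median 146). Wild-type mice had 147 to 229 CPM in NAc (median 189) and 115 to 177 CPM in BLA (median 140). The ranges overlapped in both genotypes. The edgeR log2 fold change was 0.39 ± 0.12 (adjusted p = 0.0141) in Lmo4gt/+ mice and 0.25 ± 0.09 (adjusted p = 0.0336) in wild-type mice. By CPM, Cacna1i was higher in NAc in 8 of 9 Lmo4gt/+ and 8 of 10 wild-type mice. With TMM factors these counts were 8 of 9 and 7 of 10. The wild-type call ended with RLE size factors (edgeR adjusted p = 0.0511) and without the count filter (edgeR adjusted p = 0.15).

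The T-type genes differed between regions in their make-up. Summed per kilobase, they reached 41.5 ± 7.62 CPM per kb in Lmo4gt/+ NAc and 44.6 ± 5.25 in Lmo4gt/+ BLA, and 39 ± 3.8 in wild-type NAc and 44.9 ± 5.55 in wild-type BLA, with overlapping ranges. Cacna1g made up 9.61% ± 4.38 of that sum in Lmo4gt/+ NAc and 42.2% ± 1.63 in Lmo4gt/+ BLA. In wild-type mice its share was 11.6% ± 3.88 in NAc and 44.9% ± 1.61 in BLA. Cacna1i had the largest mean share in NAc, 49.9% ± 4.53 in Lmo4gt/+ mice and 48.1% ± 3.07 in wild-type mice. Cacna1h held 40.5% ± 3.01 in Lmo4gt/+ NAc and 24.4% ± 3.24 in Lmo4gt/+ BLA, and 40.3% ± 3.77 in wild-type NAc and 22.3% ± 1.59 in wild-type BLA. Each of these 3 shares shifted in the same direction in 9 of 9 Lmo4gt/+ and 10 of 10 wild-type mice. The shares sum to a fixed whole, so they are not independent of each other, and no test was made of them.

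**Figure D3:**
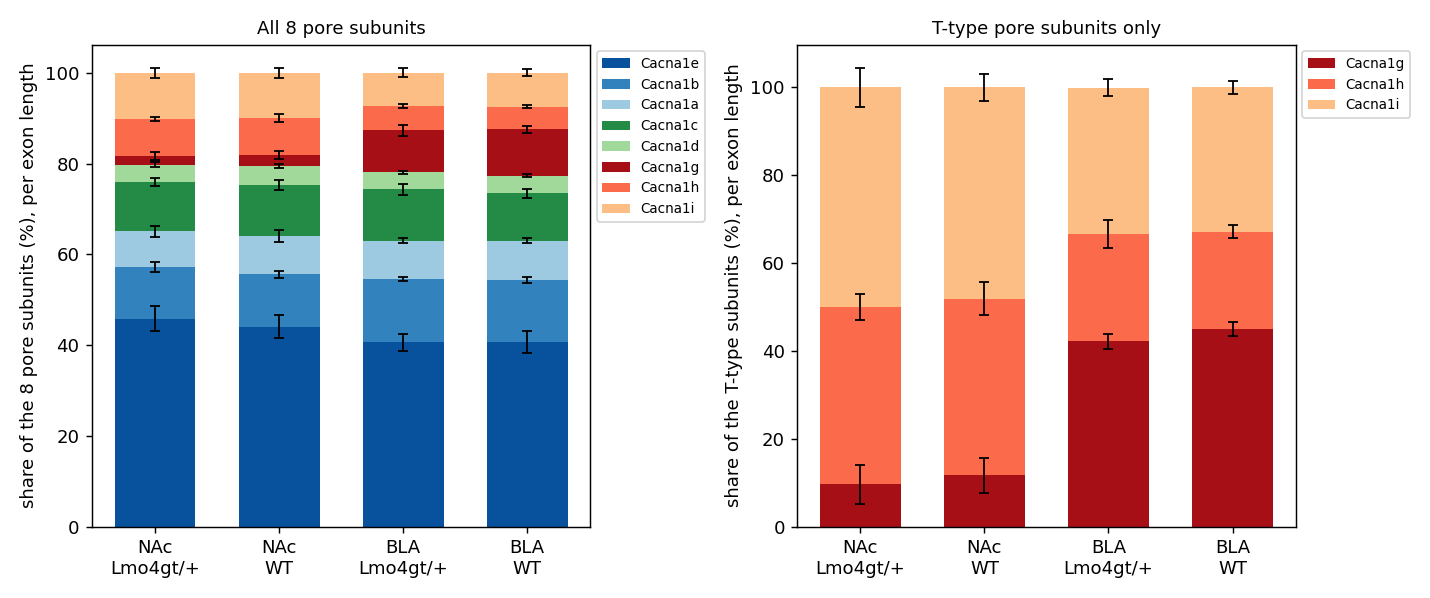
Mean share (%, stacked bars; error bars, SD over libraries, at the top of each segment) of each gene in the sum of CPM per kilobase of exon, over all 8 pore subunits (left) and over the T-type genes alone (right), by region and genotype. The Cacna1g segment is 9.61% and 11.6% of T-type RNA in NAc and 42.2% and 44.9% in BLA (Lmo4gt/+, wild type).

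Among the presynaptic pores, the N-type gene Cacna1b (ENSMUSG00000004113.18, chr2:24459407-24618672, minus strand, NCBIM37) was lower in NAc. Lmo4gt/+ mice had 192 to 258 CPM in NAc (median 224) and 224 to 338 CPM in BLA (median 278). It measured 188 to 240 CPM in wild-type NAc (median 221) and 219 to 318 CPM in wild-type BLA (median 274). The edgeR log2 fold change was -0.38 ± 0.08 (adjusted p = 0.00111) in Lmo4gt/+ mice and -0.40 ± 0.05 (adjusted p = 9.63e-07) in wild-type mice, lower in NAc in 8 of 9 and 10 of 10 mice. The group ranges overlapped in both genotypes.

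The P/Q-type gene Cacna1a (ENSMUSG00000034656.17, chr8:86912339-87164145, plus strand, NCBIM37) differed less. In Lmo4gt/+ mice it measured 155 to 208 CPM in NAc (median 184) and 147 to 224 CPM in BLA (median 202). Wild-type mice had 154 to 236 CPM in NAc (median 180) and 156 to 217 CPM in BLA (median 200). The edgeR log2 fold change was -0.18 ± 0.08 (adjusted p = 0.0617) in Lmo4gt/+ mice, which did not pass, although without the count filter it did (-0.19, adjusted p = 0.0425). In wild-type mice it was -0.20 ± 0.08 (adjusted p = 0.04), a call that ended without the count filter (adjusted p = 0.056) and with scaling by total counts (adjusted p = 0.181). NAc library 134 held the highest Cacna1a of all NAc libraries, and without the libraries that stand apart in markers the wild-type value was -0.23 ± 0.06 (adjusted p = 0.00294).

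The R-type gene Cacna1e and the L-type genes Cacna1c and Cacna1d did not pass between regions in either genotype, and their wild-type values changed sign with scaling by total counts. Cacna1e (ENSMUSG00000004110.15, chr1:156239649-156573049, minus strand, NCBIM37) measured 906 to 1874 CPM in Lmo4gt/+ NAc (median 1182) and 797 to 1275 CPM in Lmo4gt/+ BLA (median 1077). The wild-type libraries held 828 to 1275 CPM in NAc (median 1057) and 705 to 1316 CPM in BLA (median 1023). Its log2 fold change was 0.10 ± 0.13 (95% interval -0.17 to 0.37) in Lmo4gt/+ mice and -0.05 ± 0.08 (-0.22 to 0.11) in wild-type mice.

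Cacna1c (ENSMUSG00000051331.15, chr6:118542314-119146249, minus strand, NCBIM37) had a log2 fold change of -0.12 ± 0.13 (95% interval -0.40 to 0.17) in Lmo4gt/+ mice and -0.05 ± 0.06 (-0.18 to 0.08) in wild-type mice. The Lmo4gt/+ libraries held 142 to 259 CPM in NAc (median 199) and 168 to 268 CPM in BLA (median 198). The wild-type libraries held 140 to 249 CPM in NAc (median 190) and 158 to 227 CPM in BLA (median 183). Cacna1d (ENSMUSG00000015968.16, chr14:30853135-31304342, minus strand, NCBIM37) measured 66.1 to 77.1 CPM in Lmo4gt/+ NAc and 59.5 to 76.9 CPM in Lmo4gt/+ BLA, and 62.5 to 80.8 CPM in wild-type NAc and 59.4 to 81.2 CPM in wild-type BLA. Its log2 fold change was -0.07 ± 0.07 in Lmo4gt/+ mice (95% interval -0.22 to 0.08) and -0.06 ± 0.05 in wild-type mice (-0.18 to 0.05). For both L-type genes and in both genotypes the interval lay within a 1.5-fold change either way.

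In the annotation Cacna1c overlaps Dcp1b, and Cacna1d overlaps Dcp1a and Chdh, each on the opposite strand. No source used here says whether the counting used strand, so reads of these pairs cannot be told apart where exons overlap. Dcp1b averaged 25.7 CPM in wild-type NAc and 16.2 CPM in wild-type BLA, beside 187 and 182 CPM of Cacna1c. In the same groups Dcp1a averaged 32.9 and 27.4 CPM and Chdh 8.77 and 2.7 CPM, beside 71.93 and 70.25 CPM of Cacna1d. The part of such reads in the channel values was not tested. Cacna1h overlaps Tpsg1, which did not exceed 0.0841 CPM in any library.

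**Figure D4:**
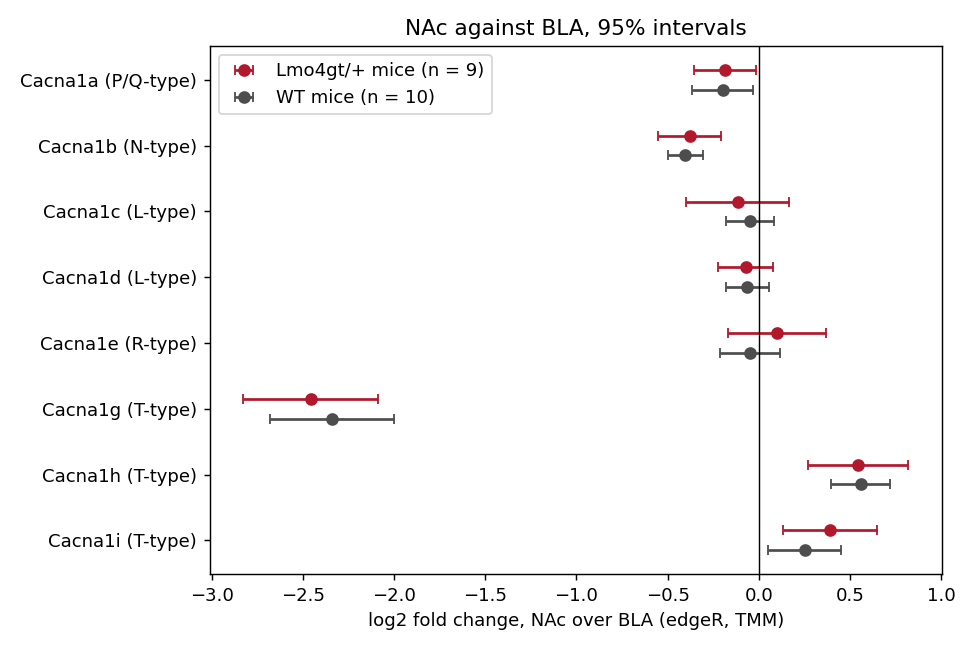
Log2 fold change of NAc over BLA (points) with 95% intervals (bars) from edgeR with the mouse as a block, for each pore subunit gene in Lmo4gt/+ mice (9) and wild-type mice (10). Cacna1g lies at -2.46 and -2.34, Cacna1b is negative and Cacna1h and Cacna1i are positive in both genotypes.

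By count, 4 of 8 members passed in Lmo4gt/+ mice, 2 higher and 2 lower in NAc, where 52.7% of 17026 genes tested passed (26.2% higher and 26.4% lower). In wild-type mice 5 of 8 passed, 2 higher and 3 lower, beside 59.6% of 16887 genes (31.1% higher and 28.5% lower). At an unadjusted edgeR p under 0.05, 5 of 8 were found in each genotype, beside 57.7% of genes in Lmo4gt/+ mice and 63.6% in wild-type mice. The 95% interval lay within a 1.5-fold change either way for 5 of 8 members in Lmo4gt/+ mice, beside 44.7% of genes, and for 6 of 8 in wild-type mice, beside 50.5%. The number of members called is thus near the background of these regions. The ranges separated for 1 of 8 members in Lmo4gt/+ mice, beside 20.4% of genes, and for 2 of 8 in wild-type mice, beside 19.7%. A call with a change of over 2-fold was made for Cacna1g alone among the members in both genotypes, beside 15% of genes in Lmo4gt/+ mice and 13.8% in wild-type mice. The median of the members' absolute log2 fold changes was 0.28 in Lmo4gt/+ mice and 0.22 in wild-type mice, against 0.34 and 0.32 over all genes tested.

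The accessory list held 33 genes of voltage-gated calcium channels and their partners. Of 30 tested in Lmo4gt/+ mice, 10 were higher and 13 lower in NAc, beside 26.2% and 26.4% of all genes tested. Of 29 tested in wild-type mice, 11 were higher and 14 lower, beside 31.1% and 28.5%. Among the alpha2delta subunits, which raise channel number at the surface, Cacna2d2 and Cacna2d3 were higher in NAc and Cacna2d1 lower. Cacna2d3 averaged 216 ± 32.1 CPM in wild-type NAc and 59.1 ± 7.58 CPM in wild-type BLA, with a log2 fold change of 1.77 ± 0.08 (edgeR adjusted p = 2.58e-10). Cacna2d2 averaged 143 ± 30.4 CPM in wild-type NAc and 47.9 ± 17.2 CPM in wild-type BLA (1.51 ± 0.13, edgeR adjusted p = 1.95e-06). Cacna2d4 was also higher, at 3.02 ± 1.35 CPM in wild-type NAc and 0.862 ± 0.381 CPM in wild-type BLA (1.71 ± 0.29). Cacna2d1 had a log2 fold change of -1.19 ± 0.06.

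The RGK inhibitor Rem2 had the largest change of the list, 2.38 ± 0.20 (edgeR adjusted p = 1.25e-06). It averaged 29.8 ± 7.18 CPM in wild-type NAc and 5.65 ± 2.23 CPM in wild-type BLA. Its relative Gem was higher too (1.45 ± 0.33) but low in level, at 1.35 ± 0.915 CPM in wild-type NAc and 0.428 ± 0.236 CPM in wild-type BLA. Rrad was lower (-1.47 ± 0.37), at 0.76 ± 0.558 CPM in wild-type NAc and 1.72 ± 0.544 CPM in wild-type BLA. Toward lower values in NAc, Stac2, an adaptor of L-type channels, averaged 33.4 ± 29.7 CPM in wild-type NAc and 73.6 ± 10.1 CPM in wild-type BLA (-1.52 ± 0.27). NAc library 134 held 118 CPM of it, more than any wild-type BLA library. Rims1, the active zone scaffold that tethers presynaptic channels, averaged 153 ± 44.3 CPM in wild-type NAc and 339 ± 26.4 CPM in wild-type BLA (-1.29 ± 0.12). Of the other active zone genes listed, Rimbp2 was lower too (-1.22 ± 0.09), while Rims3 (0.36 ± 0.11) and Rims2 (0.14 ± 0.04) were higher in wild-type NAc.

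Beta subunits bind L-, P/Q-, N- and R-type pores from inside the cell. Among the beta genes, Cacnb3 was lower in NAc (-1.21 ± 0.06) and Cacnb4 (0.50 ± 0.06) and Cacnb2 (0.21 ± 0.05) were higher in wild-type mice. Cacnb1 did not pass (-0.07 ± 0.05). Of 6 gamma subunit genes tested, several of which act on AMPA receptors, Cacng4 was higher (1.14 ± 0.06) and Cacng3, Cacng7 and Cacng8 were lower in both genotypes. The pores of muscle and retina were low: Cacna1s averaged 0.389 ± 0.261 CPM in wild-type NAc and 0.921 ± 0.422 CPM in wild-type BLA (-1.34 ± 0.47, edgeR adjusted p = 0.0228), and Cacna1f failed the count filter.

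No pore subunit passed for a difference between Lmo4gt/+ and wild-type mice in either region. Over all genes 0.00588% of 16999 passed in NAc and 0.00585% of 17087 in BLA, which was Lmo4 alone. At an unadjusted edgeR p under 0.05, 0 of 8 members were found in either region, beside 2.67% of genes in NAc and 4.11% in BLA. DESeq2 also called 0 of 8 in each. In NAc the lowest unadjusted p was 0.0854, for Cacna1e, at 1204 ± 289 CPM in Lmo4gt/+ mice and 1061 ± 123 CPM in wild-type mice (log2 fold change 0.23 ± 0.13, 95% interval -0.03 to 0.49). NAc library 149 held the most, 1874 CPM, and no fit left it out alone. The lowest Cacna1e levels were 906.2 CPM in Lmo4gt/+ NAc library 122 and 827.9 CPM in wild-type NAc library 134. Without library 122 alone, or without mouse 127, the unadjusted edgeR p for Cacna1e was under 0.05 but the adjusted p was not. Without NAc libraries 122, 134 and 149 the value for Cacna1e was 0.09 ± 0.08 (unadjusted edgeR p = 0.25). In the same fit Cacna1i was at 0.07 ± 0.11, Cacna1h at 0.05 ± 0.09, Cacna1c at 0.04 ± 0.09 and Cacna1b at 0.06 ± 0.06, against 0.21 ± 0.14, 0.13 ± 0.11, 0.12 ± 0.12 and 0.11 ± 0.07 with all 19 NAc libraries.

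In BLA the lowest unadjusted p was 0.1075, for Cacna1c, at 203 ± 35.7 CPM in Lmo4gt/+ mice and 182 ± 22.9 CPM in wild-type mice (0.16 ± 0.10, 95% interval -0.04 to 0.36). Cacna1g measured 38 ± 13.9 CPM in Lmo4gt/+ NAc and 45.1 ± 15 CPM in wild-type NAc (-0.23 ± 0.20, -0.66 to 0.19), and 189 ± 27 CPM in Lmo4gt/+ BLA and 203 ± 28.3 CPM in wild-type BLA (-0.10 ± 0.10, -0.30 to 0.10). In BLA the value was 0.07 ± 0.07 for Cacna1b, 0.13 ± 0.09 for Cacna1h, 0.03 ± 0.12 for Cacna1e and 0.01 ± 0.09 for Cacna1i. Cacna1a was at 0.01 ± 0.08 in NAc and 0.01 ± 0.07 in BLA, and Cacna1d at 0.0035 ± 0.06 in NAc and 0.01 ± 0.06 in BLA. None of these passed, and the NAc values of Cacna1a and Cacna1d were negative with scaling by total counts. The 95% interval lay within a 1.5-fold change either way for 7 of 8 members in NAc, the exception being Cacna1g, and for 8 of 8 in BLA. Over all genes that share was 73.3% in NAc and 77.1% in BLA. Both regions come from mostly the same mice, so their values are not independent of each other. Of the accessory genes, edgeR called 0 of 30 in NAc and 0 of 31 in BLA, and DESeq2 also called 0. At an unadjusted edgeR p under 0.05 there were Cacnb2 in NAc (p = 0.0391) and Cacng8 (p = 0.0206) and Cacng3 (p = 0.0388) in BLA, named after their values were seen.

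**Figure D5:**
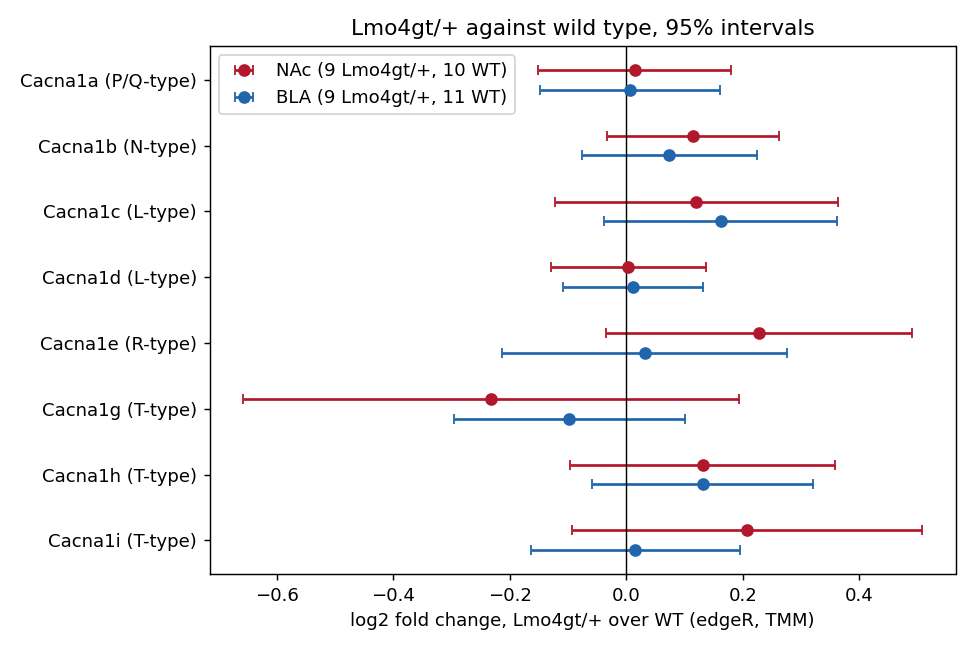
Log2 fold change of Lmo4gt/+ over wild type (points) with 95% intervals (bars) from edgeR, for each pore subunit gene in NAc and BLA. Every interval includes 0, and the Cacna1g interval in NAc is the widest, from -0.66 to 0.19.

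The regional difference did not change detectably with genotype. The interaction fit, over 19 mice with both regions, called 0 of 8 members and 0% of 18325 genes in edgeR, with 0 of 8 members and 2.96% of genes at an unadjusted p under 0.05. DESeq2 called 0 of 8. The interaction was -0.10 ± 0.24 for Cacna1g (95% interval -0.60 to 0.39), 0.000139 ± 0.15 for Cacna1h and 0.15 ± 0.16 for Cacna1i. It was 0.16 ± 0.15 for Cacna1e, 0.04 ± 0.09 for Cacna1b, 0.03 ± 0.11 for Cacna1a, -0.05 ± 0.15 for Cacna1c and 0.0033 ± 0.09 for Cacna1d. Without the libraries that stand apart in markers the Cacna1g value was 0.13 ± 0.19. For 7 of 8 members the interval lay within a 1.5-fold change either way, beside 59.9% of genes, and for Cacna1g it reached 1.52-fold.

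Within groups the members varied together to unequal degrees. After each library's log2(CPM + 0.5) was centred on its region and genotype group, Pearson's r over 39 libraries ran from -0.472 (Cacna1c with Cacna1g) to 0.813 (Cacna1b with Cacna1e) among 28 pairs. Cacna1e also followed Cacna1h (0.809) and Cacna1c (0.789). Libraries differ in depth and most come in pairs from 1 mouse, so these values are a description. Among 13446 named genes, those most like Cacna1e were Trrap (0.925), Prrc2c (0.921) and Ash1l (0.921), with annotated exons of 15.2, 8.82 and 11.3 kb. Those most like Cacna1b were Macf1 (0.913), Htt (0.901) and Mycbp2 (0.889), with 26.7, 18.8 and 19.3 kb of exon. Those most like Cacna1g were Vwa5b2 (0.897), Mast1 (0.896) and Adcy6 (0.894), with 7.57, 6.46 and 6.02 kb of exon. Spearman's rho for these Cacna1g matches was lower, at 0.743, 0.789 and 0.834. Cacna1h was closest to Crtc1 (0.885), Cacna1i to Myo18a (0.86), Cacna1c to Dlg2 (0.857) and Cacna1a to Unc13a (0.842), a priming factor of vesicle release. Crtc1, Myo18a, Dlg2 and Unc13a had 11.2, 14.8, 11 and 8.56 kb of exon. Cacna1d had the loosest match, Nav2 (0.725), with 15.9 kb of exon. The part of exon length in these matches was not tested.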

How the data were processed

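Counts of reads per Ensembl gene were deposited by the authors as raw whole numbers, 1 file per library. The submitters' processing notes name build mm9 and the tools HISAT2, DESeq2, MultiQC 1.7 and HTSeq 0.11.1, without settings or strand. Per the labels' protocols, punches were cut from 300 µm frozen sections. Reads that HTSeq gave to no gene (24.7% to 38.1% per library) stayed out of library sizes and tests. Symbols and coordinates came from GENCODE vM1 (NCBIM37, the assembly of mm9), matched without version for 32708 of 51826 rows.

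Libraries were grouped by title. Genes were tested with edgeR 4.0.16 in R 4.3.3 (TMM, filterByExpr with a minimum count of 10, robust quasi-likelihood F test, two-sided, Benjamini-Hochberg threshold 0.05), and with DESeq2 1.42.0 as an alternative; the scripts were tested on simulated data. Region comparisons and the interaction kept the mouse as a block. The title numbers make 9 Lmo4gt/+ and 11 wild-type mice, as the series' design text states. Deviations of same-numbered libraries correlated weakly (median r 0.0411 over 19 pairs, against -0.00509 for other mice of the genotype). A ± is an SD beside a level and an SE beside a log2 fold change. Levels and counts of mice rest on CPM without TMM factors, unless stated, while the main edgeR fits used such factors. Over all 39 libraries these factors ran from 0.942 to 1.01 in BLA and from 0.893 to 1.1 in NAc.

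The members and the accessory and marker lists were chosen with earlier results of these data known. All 8 members are named in every comparison; of the accessory list, the 4 called genes with the largest change per direction in wild-type mice are named, and others were chosen after their values were seen. Pattern likeness took the 3 highest r per member. The labels give no batch, date or sex. Results of some listed genes are not reported by name here.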

Additional observations from a re-analysis of the deposited data

Results flagged for a closer look

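In 24 groups of 9 or 10 libraries checked (8 genes in 3 of the groups; the 11 wild-type BLA libraries are too many for the rule), 3 held a library far from its neighbours, where chance gives about 1 in 20. Cacna1a reached 236.1 CPM in wild-type NAc library 134, against 190.7 CPM in the next library. Cacna1e reached 1874 CPM in Lmo4gt/+ NAc library 149, against 1343 CPM in the next. Cacna1i reached 344.9 CPM in the same library, against 225.1 CPM in the next. Library 149 also held the lowest Cacna1g of all NAc libraries (18.6 CPM) and the lowest interneuron marker sum (11.9 CPM, against a median of 91.66 CPM in Lmo4gt/+ NAc). It had the lowest gene counts (21255934), the fewest genes with reads (20238), the highest share of reads with no gene (38.1%) and the lowest TMM factor (0.893) of the 39 libraries. The part of these markers and library measures in the values was not tested.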

How the results depend on the processing

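Without the count filter 3 of 8 members passed between regions in wild-type mice, 1 higher and 2 lower, against 5 of 8. With RLE size factors or scaling by total counts 4 passed. In Lmo4gt/+ mice 5 passed without the filter, Cacna1a being added, and 4 under each other setting. Without the mouse as a replicate block 4 passed in Lmo4gt/+ and 5 in wild-type mice, and the interaction called 0. Genotype and interaction calls of members stayed at 0 under every setting run. For Cacna1e in NAc the unadjusted edgeR p was 0.0388 without NAc library 122 and 0.0416 without mouse 127 (adjusted p 0.952 and 0.979), and 0.25 without NAc libraries 122, 134 and 149, with adjusted p between 0.619 and 1 over all alternatives.

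Among the log2 fold changes of single members, 18 changed sign, none of them called, and the cause was not tested. Over all genes tested, the median in the wild-type region comparison was 0.037 with TMM and 0.125 with scaling by total counts. With scaling by total counts, wild-type region values were 0.0387 for Cacna1c, 0.0264 for Cacna1d and 0.0382 for Cacna1e, and the Lmo4gt/+ region value of Cacna1d was 0.0032. Genotype values in NAc were then -0.0158 for Cacna1a and -0.0285 for Cacna1d, and interactions -0.0232 for Cacna1d and -0.0263 for Cacna1h. Without the count filter Cacna1d was -0.0012 in NAc. Without NAc library 122 Cacna1a was -0.00089 in NAc and the Cacna1c interaction 0.0471. Without mouse 127 Cacna1a was -0.0021 in BLA and the Cacna1c interaction 0.0073. Without the 7 libraries that stand apart in markers, Cacna1d was -0.0100 in NAc and -0.0219 in BLA, Cacna1a -0.00099 in BLA, and interactions 0.13 for Cacna1g and -0.0066 for Cacna1h. There is 1 library per mouse and region, so technical and biological spread cannot be told apart.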
